A study of Mus musculus with 8 samples.

Results

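Lamp5 interneurons are a class of cortical GABAergic neuron, and here they are the nuclei that the authors' deposited cell table of mouse primary visual cortex (V1) names Lamp5. There were 1163 of them among 102330 nuclei (1.14%), and they made up 11.2% of the 10403 nuclei in the 5 inhibitory classes of that table. The study used 21-day-old GR fl/fl mice, in which Nr3c1, the gene of the glucocorticoid receptor (GR), carries loxP sites in every animal. The vector was injected into the cortex on both sides at birth. GR-KO mice received an AAV2/5 carrying GfaABC1D-Cre-T2A-EGFP-CAAX with the elements 4x6T and WPRE, which places Cre under a promoter fragment of GFAP that is active in astrocytes, and GR-Con mice received the same vector with ΔCre, a Cre without recombinase activity. Mice were normally reared (NR) on a reversed light and dark cycle or kept in chronic darkness (DR), and each of the 4 groups formed by rearing and genotype was 2 mice, a male and a female, each with a library of its own. All V1 tissue was taken under red light within a fixed 2-hour window of the circadian cycle, and frozen nuclei stained with DRAQ5 were sorted, from the fraction without green fluorescence by the study's methods, for 10x 3′ sequencing. Interneurons were therefore not the cells in which the vector was meant to act, and a genotype difference in them compares animals.

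Lamp5 neurons lie most densely in the upper cortical layers and include the neurogliaform cells, which release GABA diffusely and so inhibit neighbouring dendrites through both ionotropic and metabotropic receptors. Most derive from the caudal ganglionic eminence, as Vip interneurons do, or from the preoptic region, whereas Sst and Pvalb interneurons come from the medial eminence. Many contain neuropeptide Y and reelin, and they are coupled to each other and to other interneurons by gap junctions.

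The nuclei carried the markers of their name. UMI counts were summed over the Lamp5 nuclei of each library and divided by the total, giving CPM (UMIs per 1000000). Lamp5 itself stood at 133 ± 19.5 CPM (SD over 8 libraries), and the next highest type, the layer 2/3 neurons, reached 64.2. Gad2, which makes GABA, was at 1056 ± 44.5 CPM against 302 in Vip neurons. Of the 14 identity markers, Lamp5, Gad2, Gad1, Ndnf, Npy, Reln, Sv2c and Kit were at a higher mean in Lamp5 nuclei than in any of the other types. Sv2c, a synaptic vesicle glycoprotein, was at 461 ± 66.2 CPM against 87.9 in layer 6b, and the receptor tyrosine kinase gene Kit at 516 ± 19.7 against 172 in Vip neurons. The secreted neuronal factor gene Ndnf was at 208 ± 42.8 CPM, where endothelial nuclei held 123. Adarb2, an RNA-binding protein of the caudal lineages, was at 12249 ± 1135 CPM, below the 22585 of Vip neurons. Slc32a1, Id2, Cplx3, Gabrd and Cxcl14 were also higher in another type, and of the subtype markers Tmem182 had no UMI.

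The genes that led the class by fold over the highest other type of at least 10 nuclei per library included few of the listed markers. Crispld1, a secreted protein of the CAP family, was at 349 ± 78.6 against 28 CPM, and the integrin-like gene Itgbl1 at 156 ± 38.6 against 16.8. Pde11a, a phosphodiesterase that degrades both cAMP and cGMP, was at 1158 ± 123 against 94.7 CPM. Fgf13, an intracellular partner of sodium channels, was at 4139 ± 299 against 617 CPM. These values describe how the class was drawn and were not tested.

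**Figure D1:**
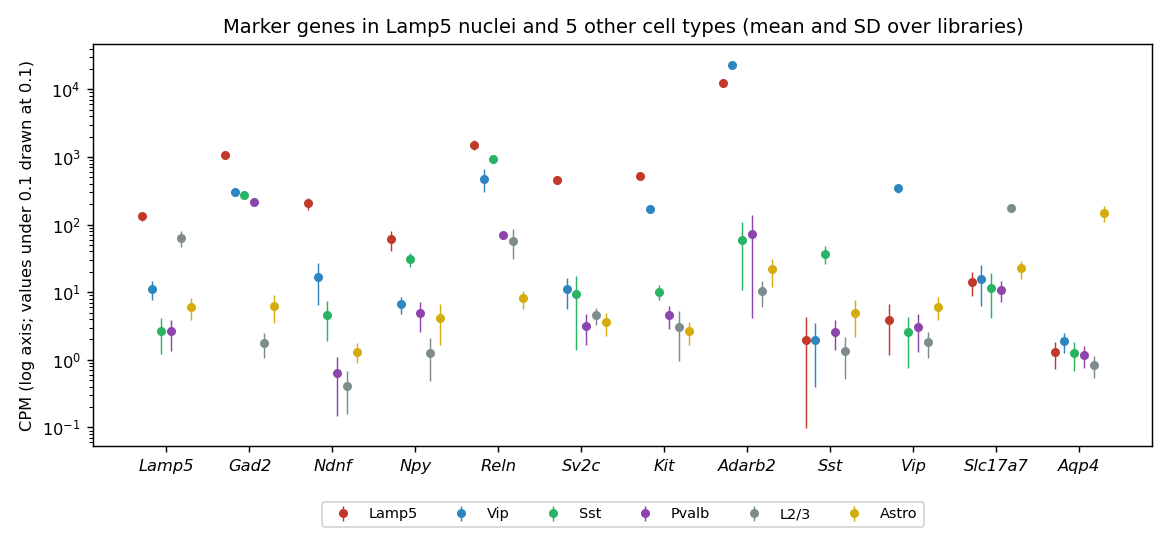
Level of 12 marker genes in 6 of the deposited cell types, in CPM on a log axis. Points are means over 8 libraries and bars 1 SD, a lower bar is shortened where the SD nears or exceeds the mean, and values under 0.1 are drawn at 0.1. Gad2, Ndnf, Npy, Reln, Sv2c and Kit are highest in Lamp5 nuclei, while Slc17a7 and Aqp4 are far below their levels in layer 2/3 neurons and astrocytes.

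A library held 118 to 183 Lamp5 nuclei and 1785567 to 3715278 UMIs from them, with a median of 13564.5 to 26520.5 UMIs per nucleus. The NR GR-KO female stood highest in that median, and 31 nuclei held under 5000 UMIs. No barcode was shared between Lamp5 nuclei of different libraries, although 23 of them had a barcode that another type carried in another library. Summed markers of excitatory neurons lay at 263 to 324 CPM in NR and 277 to 377 CPM in DR libraries, astrocyte markers at 193 to 239 and 165 to 203, and the Sst, Vip and Pvalb lists at 87.6 to 188, 124 to 186 and 8.46 to 26.3 over all libraries, with Sncg at 0. Oligodendrocyte lineage markers summed to 203.9 CPM in the DR GR-KO female and 42.4 to 93.6 in the other libraries, and microglia and vascular markers to 43.9 in the NR GR-KO male and 21.1 to 28.8 in the others. Ribosomal protein transcripts summed to 1161 ± 132 CPM in NR (1044 to 1348) and 908 ± 11.8 in DR (896 to 919), so the conditions did not overlap, and 73 of the 80 such genes tested were lower in DR, 2 of them called. The part of these differences in the results that follow was not tested.

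A further measure of mixed content differed between libraries. There were 22 Lamp5 nuclei with at least 3 UMIs of Slc17a7, the vesicular glutamate transporter of excitatory neurons, and all 22 also held Gad2. NR libraries had 4, 2, 4 and 7 of them (GR-Con male and female, then GR-KO male and female, the order kept throughout), and DR libraries 0, 3, 1 and 1. The conditions overlapped, and the NR GR-KO female held the most. They held 4.19% of all Lamp5 UMIs, but 47.5% of those of Car10, 43.1% of Brinp3, 50.4% of Kcnh5, 48.1% of Rorb and 38.4% of Tafa1, genes that are far more abundant in excitatory neurons or glia. They also held 32.9% of the Slc17a7 UMIs, so leaving these nuclei out removes that RNA only in part. Their share was 3.57% for Pde10a, 2.08% for Igf1 and 3.03% for Npy. Every comparison was therefore also run without them, an alternative chosen with earlier results known, and its value is given wherever it changes a call.

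No difference in Nr3c1 between genotypes was detected in Lamp5 nuclei. Its level was 116, 116, 118 and 116 CPM in the 4 NR libraries and 112, 84.7, 89.9 and 82.8 CPM in the 4 DR libraries. The NR libraries were level with each other across genotypes, and in the DR libraries the GR-KO values lay inside or just below the GR-Con pair. The genotype difference over 8 libraries gave log2FC -0.06, SE 0.11, adjusted p = 0.999 by edgeR's likelihood ratio test with Benjamini-Hochberg adjustment, and the rearing difference was -0.29 (SE 0.11, adjusted p = 0.163). Transcripts of the vector served as the label check. A UMI of the Cre feature was present in 0 of 584 GR-Con nuclei, which allows a share of up to 0.514% (3 counts of the total), and in 23 of 579 GR-KO nuclei (3.97%, exact Clopper-Pearson 95% interval 2.53 to 5.90). In oligodendrocytes and their precursors of GR-KO mice, which should lack it, the share was 6 of 4001 (0.150%), at a median depth over all libraries of 7691 UMIs against 16222 in Lamp5 nuclei. In GR-KO astrocytes that remained after the sort it was 4.59%, in Sst nuclei 5.23% and in Vip nuclei 1.60%. The NR GR-KO male held 10 of the 23 Lamp5 nuclei with Cre, 40 of 65 Sst and 14 of 17 Vip nuclei, and without it the shares were 3.28%, 3.05% and 0.407%, with 3.84% in astrocytes and 0.0681% in oligodendrocytes and their precursors. EGFP had a UMI in 1 of 584 GR-Con and 6 of 579 GR-KO Lamp5 nuclei, and in 5 of 8266 oligodendrocytes and precursors (0.0605%). The feature named for ΔCre was present in 0 of 584 GR-Con and 16 of 579 GR-KO Lamp5 nuclei, and in 104 of 5124 GR-Con and 128 of 4362 GR-KO astrocytes (2.03% and 2.93%), so that it did not follow its name and served as no label check. These intervals cover counting error only, and whether recombination took place in any Lamp5 nucleus was not tested.

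The proportion of Lamp5 nuclei did not differ detectably between rearing conditions or genotypes. They were 0.938% of all nuclei in the DR GR-KO female (exact 95% interval 0.785 to 1.11) and 1.51% in the NR GR-KO male (1.30 to 1.74), with the other 6 libraries between. GR-KO libraries had a mean of 1.25% ± 0.236 (SD, n = 4) and GR-Con libraries 1.05% ± 0.0796, a difference of 0.194 percentage points (two-sided exact permutation p = 0.171, the smallest possible being 0.0286). Among inhibitory nuclei the shares were 12.9% ± 2.40 in GR-KO and 10.2% ± 0.622 in GR-Con (exact permutation p = 0.0571). The edgeR quasi-likelihood test on the 5 inhibitory classes gave a log2 ratio of 0.31 (SE 0.11, adjusted p = 0.0871). The shares in DR and NR, 1.10% ± 0.149 and 1.20% ± 0.239 of all nuclei, gave an exact permutation p = 0.457.

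The expression of 319 genes in Lamp5 nuclei differed between DR and NR mice. The comparison asks how the absence of visual experience alters these neurons, and it set the 4 DR against the 4 NR libraries with genotype as a term. They were 2.68% of the 11885 tested, at an adjusted p of 0.05. DR was the higher condition for 189 (1.59%) and the lower for 130 (1.09%). Changes are given as log2 fold change (log2FC), DR minus NR. The groups did not overlap in 234 of the 319, against 8.67% of all genes tested. By the quasi-likelihood test 157 passed (1.32%), by DESeq2 193 (6% of those it gave an adjusted p), and 99 were called by all 3 tests. With 2 animals per group, these p-values rest on the spread between few mice. Of the lower genes 29 of 130 (22.3%) had a mean level under 10% of that in the highest other cell type. The same held for 17 of 189 higher genes (8.99%) and for 5.52% of all genes tested. Only types with at least 10 nuclei in every library were ranked for this, so rarer types were left out. Of the 305 tested genes on the lists used here, without the markers of excitatory neurons and glia, 42 were called (13.8%), 28 higher and 14 lower, and the lists were chosen with earlier results of these data known. Counts of called members on single lists below stand beside the 2.68% of all genes tested.

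**Figure D2:**
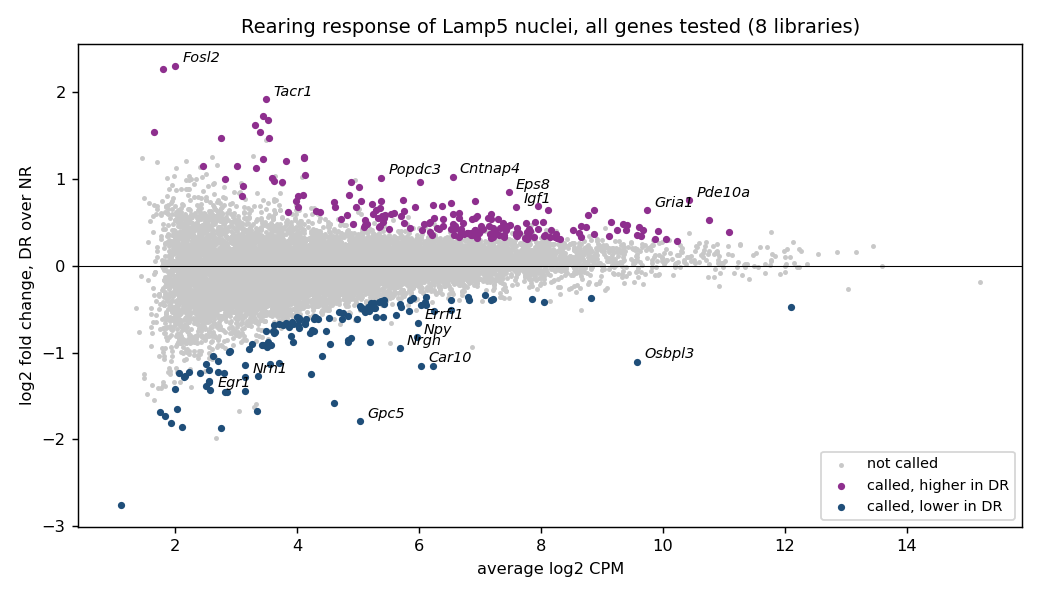
Rearing difference of each of the 11885 genes tested in Lamp5 nuclei, as log2 fold change (DR minus NR) against the average log2 CPM over 8 libraries. Coloured points are the 189 genes called higher and the 130 called lower in DR. Pde10a is called at 0.76 and Gpc5 at -1.79.

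Pde10a, Popdc3, Igf1 and Eps8 were higher in every DR library than in every NR library. Pde10a (chromosome 17, 8525372 to 8986648, plus strand, GRCm38) encodes a phosphodiesterase that breaks down cAMP and cGMP. It stood at 1009.7, 1055, 1068 and 1018 CPM in the NR libraries and 1389, 1807, 1772 and 1801 CPM in the DR libraries. The NR libraries lay within a narrow band, every DR library was above it, and the DR GR-Con male was the lowest of the 4. The difference gave log2FC 0.76, SE 0.10, adjusted p = 6.79e-10. Popdc3, which encodes a membrane protein with a cAMP-binding Popeye domain, went from 28 ± 7.28 to 54.5 ± 10.1 CPM (mean ± SD, n = 4; log2FC 1.02, SE 0.18, adjusted p = 2.28e-05).

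Igf1 (chromosome 10, 87858265 to 87937042, plus strand), the secreted insulin-like growth factor, was at 156, 142, 157 and 139 CPM in NR and 166, 231, 256 and 274 CPM in DR libraries. The DR GR-Con male lay just above the highest NR library and the other 3 DR libraries far above it (log2FC 0.68, SE 0.13, adjusted p = 4.92e-05). Eps8, which caps and bundles actin filaments, rose from 127 ± 28.3 to 222 ± 31.1 CPM (log2FC 0.85, SE 0.13, adjusted p = 5.15e-07). The kinase gene Lrrk2 (log2 fold change 0.70), the tyrosine phosphatase gene Ubash3b (0.64) and the thioredoxin-related gene Nxn (0.90) were also higher without overlap. Of these, Nxn is much more abundant in astrocytes, at 160.3 CPM, and Eps8 at 371.

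Neuropeptide genes were called in opposite directions, Npy in 16 of 16 alternative settings and Pnoc in 5 of 15. Npy (chromosome 6, 49822710 to 49829507, plus strand), the peptide that many Lamp5 neurons release, was at 76, 71.7, 82.9 and 81.5 CPM in NR and 51.5, 51.6, 35 and 32.8 CPM in DR libraries. Every DR library was below every NR library, and the 2 DR GR-KO libraries were the lowest (log2FC -0.82, SE 0.14, adjusted p = 8.89e-06). Pnoc, the precursor of nociceptin, was at 29.6, 26.9, 30.1 and 27.7 CPM in NR and 33.4, 41, 42.9 and 36.1 CPM in DR libraries. The conditions did not overlap, with a smaller difference (log2FC 0.48, SE 0.13, adjusted p = 0.0229; without the 22 nuclei 0.43 (adjusted p = 0.053)). Of the 6 neuropeptide genes tested these were the 2 called, 1 in each direction, where 2.68% of all genes tested were called. Lamp5 (log2 fold change -0.11, adjusted p = 0.718), Gad2 (0.06, adjusted p = 0.802), Reln (0.05, adjusted p = 0.93), Ndnf (0.22, adjusted p = 0.567) and Kit (0.14, adjusted p = 0.471) were not called. Of the identity markers only Npy and Sv2c were, Sv2c being higher in DR at 512, 582, 458 and 492 CPM, where the NR libraries had 384, 393, 420.4 and 446 (log2FC 0.37, SE 0.10, adjusted p = 0.0237; without the 22 nuclei 0.34 (adjusted p = 0.0597)).

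Promoter sequences are shown for Hlf and Ywhah, both lower in DR, whose windows hold a motif of activity-regulated factors, to set their responses beside the letters upstream of them. The windows are the 250 bases before the start that RefSeq gives on GRCm38.p6, 5′ to 3′ on the gene's strand, with the motif match in capitals. The motifs searched on both strands were TGACGTCA (the cAMP response element, CRE), TGANTCA (AP-1, the site of FOS and JUN proteins) and GCGTGGGCG (EGR), none of which contains another.
Hlf, chr11:90390918-90391167, minus strand, CRE at base -9: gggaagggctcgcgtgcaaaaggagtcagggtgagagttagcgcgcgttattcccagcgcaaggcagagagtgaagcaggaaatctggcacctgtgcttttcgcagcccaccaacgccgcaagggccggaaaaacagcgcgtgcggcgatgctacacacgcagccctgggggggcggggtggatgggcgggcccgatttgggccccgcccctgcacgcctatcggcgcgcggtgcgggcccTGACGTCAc
Ywhah, chr5:33018566-33018815, plus strand, CRE at base -96: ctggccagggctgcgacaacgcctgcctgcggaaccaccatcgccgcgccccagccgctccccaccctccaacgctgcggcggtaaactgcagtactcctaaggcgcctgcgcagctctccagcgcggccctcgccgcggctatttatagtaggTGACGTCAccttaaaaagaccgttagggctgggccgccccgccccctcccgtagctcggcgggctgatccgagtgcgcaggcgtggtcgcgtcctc
Igf1 and Htr7, both higher in DR, held AP-1 at base -37 and EGR at base -95 of their windows. These windows overlap exons that GENCODE places upstream of the RefSeq start, and that of Igf1 lies inside the gene as located above, so they are not printed. A window was matched to 9129 of the genes tested, 134 called higher and 92 called lower. The CRE was found in 3.01% of tested, 2 of the higher and 3 of the lower windows. AP-1 was found in 3.63%, 6 and 4, and EGR in 1.12%, 3 and 1. Over all 27025 promoters the shares were 1.62%, 6.87% and 0.540%. A match describes the letters only.

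Receptor and channel genes were mostly higher where they were called. Of 18 ionotropic glutamate receptor genes tested, 3 were called, all higher, 15 had positive log2 fold changes and the list's median was 0.12, against -0.01 over all genes tested. The share called higher over all genes was 1.59%. Gria1, an AMPA receptor subunit, was at 671, 669.8, 805 and 546 CPM in NR and 899.8, 1173, 1038 and 936 CPM in DR libraries. All 4 DR libraries were above the NR range, in which the GR-KO pair was the widest (log2FC 0.64, SE 0.12, adjusted p = 1.28e-04). The kainate receptor genes Grik4 (101 ± 16.6 to 143 ± 10.9 CPM, log2FC 0.57, SE 0.11, adjusted p = 6.80e-05) and Grik1 (log2FC 0.39, SE 0.11, adjusted p = 0.0214; without the 22 nuclei 0.33 (adjusted p = 0.0609)) were the other 2.

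Among genes of GABA handling, Slc6a11 and Gabra2 were called, where 2.68% of all genes tested were. Slc6a11, the GABA transporter GAT-3, was at 23.2, 29.1, 29.6 and 31.8 CPM in NR and 34.9, 42, 41.9 and 37.8 CPM in DR libraries, all DR values being the higher (log2FC 0.53, SE 0.13, adjusted p = 0.00888). It was the only one called of 9 genes of GABA synthesis and transport, with Gad1 at 0.29 (adjusted p = 0.123), and it is more abundant in astrocytes, at 278 CPM. Gabra2 (log2FC 0.56, SE 0.15, adjusted p = 0.0119) was the only one of 13 GABA receptor genes. None of the 6 metabotropic glutamate receptor genes or the 4 gap junction genes tested was called by the likelihood ratio test, the quasi-likelihood test or DESeq2, with 3 and 0 at an unadjusted p under 0.05.

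Neuromodulator receptors were split, and the lower calls held in fewer of the alternative settings. Chrna5 held in 4 and Adrb1 in 6 of 15, against 7 of 15 for Htr7 and 15 of 15 for Htr4. The serotonin receptor genes Htr4 and Htr7, both coupled to cAMP production, were higher in DR, Htr4 at 9.60, 4.48, 4.58 and 4.74 CPM in NR and 15.9, 21.5, 7.84 and 10.6 CPM in DR libraries. Only the NR GR-Con male reached into the DR range (log2FC 1.23, SE 0.26, adjusted p = 5.19e-04). Htr7 went from 14.8 ± 3.84 to 22.8 ± 3.17 CPM (log2FC 0.64, SE 0.19, adjusted p = 0.0335; without the 22 nuclei 0.60 (adjusted p = 0.0502)). Chrna5, a nicotinic receptor subunit, fell from 15.1 ± 3.05 to 8.52 ± 1.49 CPM (log2FC -0.76, SE 0.23, adjusted p = 0.0374; without the 22 nuclei -0.70 (adjusted p = 0.114)), and the β1-adrenergic receptor gene Adrb1 from 19.7 ± 3.49 to 11.5 ± 2.69 (log2FC -0.72, SE 0.22, adjusted p = 0.042; without the 22 nuclei -0.69 (adjusted p = 0.0684)). Tacr1, the receptor of substance P, was at 8.0, 1.12, 7.0 and 1.35 CPM in NR and 9.85, 13.3, 28.1 and 17.8 CPM in DR libraries. Each DR library was above each NR library, but the NR values came from 20, 2, 26 and 4 UMIs (log2FC 1.92, SE 0.41, adjusted p = 6.90e-04).

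Of 36 potassium channel genes tested 2 were called higher and 1 lower, and none of 23 sodium, calcium and HCN channel genes was called by any of the 3 tests, with 5 at an unadjusted p under 0.05. Over all genes tested, 1.59% were called higher and 1.09% lower. Kcnd3, which encodes the A-type channel Kv4.3, went from 366 ± 23.5 to 481 ± 32.6 CPM (log2FC 0.45, SE 0.10, adjusted p = 7.10e-04). Kcnh5 was called lower (log2FC -1.25, SE 0.36, adjusted p = 0.0313), with 52.1 CPM in the NR GR-KO female and 6.11 to 18.5 in the other libraries. Without the 22 nuclei its value turned positive, at 0.26 (adjusted p = 0.733).

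Adhesion and guidance genes were called in 1 direction. Of 38 tested, 7 were called higher and none lower, where 1.59% of all genes tested were called higher and 1.09% lower. Among the 38, 27 were above 0, with a median of 0.06 against -0.01 over all genes. Tenm2, a teneurin that binds latrophilins across the synapse, was at 1391, 1262, 1749 and 1358 CPM in NR and 1948, 2174, 1907 and 1924 CPM in DR libraries, with the NR GR-KO male highest among NR and still below all DR libraries (log2FC 0.52, SE 0.11, adjusted p = 6.37e-04). Cntnap4, a contactin-associated protein of interneurons, was at 58, 40.3, 111 and 40.9 CPM in NR and 135, 114, 104 and 131 CPM in DR libraries. The NR GR-KO male overlapped the DR range and the other 3 NR libraries did not (log2FC 1.03, SE 0.23, adjusted p = 0.00222). Its relatives Cntnap5c (0.75) and Cntnap5a (0.38), the receptor phosphatase gene Ptprt (0.41), the netrin receptor gene Unc5d (0.29) and the netrin gene Ntn1 (0.61; without the 22 nuclei 0.58 (adjusted p = 0.059)) made up the rest. Off this list, the cadherin genes Dchs2 (0.73), Cdh13 (0.69) and Cdh4 (0.65) were named among the genes with the largest differences, without overlap between conditions. None of the 13 extracellular matrix genes or the 6 ErbB and neuregulin genes tested was called, with 2 of each at an unadjusted p under 0.05 and 1 of the latter called by DESeq2.

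Transcription factors of interneuron identity had a median of 0.16 over 27 genes, 20 of them above 0, and 3 were called higher. Over all genes tested the median was -0.01, and 1.59% were called higher. Tox2 was at 191, 189, 209 and 176 CPM in NR and 230.1, 205, 288 and 276 CPM in DR libraries, and only the DR GR-Con female fell inside the NR range (log2FC 0.43, SE 0.11, adjusted p = 0.00864). Maf (log2FC 0.40, SE 0.11, adjusted p = 0.0296; without the 22 nuclei 0.38 (adjusted p = 0.057)) and Zeb2 (log2FC 0.41, SE 0.13, adjusted p = 0.0461; without them 0.40 (adjusted p = 0.0516)) were close to the threshold.

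Immediate early genes, which neurons transcribe within minutes of activity, were sparse. Of 20 listed, 8 were tested, 2 called higher and 2 lower, and the nuclei of frozen tissue held few of their UMIs. The shares called over all genes tested were 1.59% higher and 1.09% lower. Egr1 had 19, 6, 43 and 16 UMIs in the NR libraries and 3, 6, 6 and 8 in the DR libraries, or 3.36 to 11.6 and 1.14 to 4.44 CPM, with an overlap between conditions (log2FC -1.43, SE 0.40, adjusted p = 0.023). Junb, a partner in AP-1, was at 5.08 to 17.5 CPM in NR and 1.38 to 3.89 CPM in DR, without overlap (log2FC -1.46, SE 0.44, adjusted p = 0.0389). Fosl2, another AP-1 protein, went the other way, from 3, 1, 8 and 2 to 4, 10, 25 and 12 UMIs, the highest in the DR GR-KO male (log2FC 2.31, SE 0.46, adjusted p = 2.54e-04). The nuclear receptor gene Nr4a3 rose from 10.3 ± 3.10 to 23.9 ± 9.12 CPM (log2FC 1.24, SE 0.27, adjusted p = 9.20e-04), whereas Nr4a1 was not called (log2 fold change 0.02, adjusted p = 0.978). Of 21 effector genes of activity, Igf1 was called higher and Nrn1, which encodes neuritin, lower, at 10.4, 7.84, 11.8 and 14.2 CPM in NR and 3.41, 4.44, 4.61 and 5.0 in DR, all DR libraries being below all NR libraries (log2FC -1.28, SE 0.26, adjusted p = 4.61e-04).

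Of 18 circadian clock genes tested, 4 were called lower and 1 higher, with a list median of -0.03. For all genes tested 1.09% were called lower and 1.59% higher, with a median of -0.01. Hlf, a PAR bZIP factor of clock output, was at 79.6, 75, 70.8 and 91.4 CPM in NR and 52.3, 49.2, 61.3 and 61.7 CPM in DR libraries, without overlap (log2FC -0.45, SE 0.12, adjusted p = 0.0224). Its relative Dbp (log2FC -0.67, SE 0.21, adjusted p = 0.0497; without the 22 nuclei -0.69 (adjusted p = 0.057)) and the period gene Per3 (log2FC -0.55, SE 0.16, adjusted p = 0.0331) were also lower. Npas2, a partner of BMAL1, was higher at 167 to 235 CPM in DR against 133 to 162 in NR (log2FC 0.46, SE 0.11, adjusted p = 0.00674), while Arntl itself (-0.06, adjusted p = 0.879), Per2 (0.11, adjusted p = 0.795) and Per1 (0.44, adjusted p = 0.289) were not called. Rorb, also on this list, was led by the NR GR-KO female at 87 CPM, with 7.84 to 22.9 in the other 7 libraries (log2FC -1.58, SE 0.39, adjusted p = 0.00661; without the 22 nuclei -0.69 (adjusted p = 0.0744)). Darkness and the phase of the animals' internal rhythm cannot be told apart here. Of 11 corticosteroid receptor and target genes, Zbtb16 was called higher (log2FC 0.48, SE 0.15, adjusted p = 0.0464; without the 22 nuclei 0.45 (adjusted p = 0.0597)) and Errfi1, an inhibitor of EGF receptor signalling, lower, from 76.1 ± 6.07 to 46.6 ± 14.6 CPM (log2FC -0.66, SE 0.15, adjusted p = 0.00312). Fkbp5 (0.35, adjusted p = 0.485), Sgk1 (0.13, adjusted p = 0.623) and Nr3c2 (0.05, adjusted p = 0.888) were not called.

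Among the genes lower in DR, Nrgn and Osbpl3 remained called without the 22 nuclei, which held 10.1% of the UMIs of Nrgn. The other nuclei kept the larger part of the Slc17a7 UMIs, and the part of RNA from excitatory neurons in these calls was not tested. Nrgn, which encodes the calmodulin-binding protein neurogranin, was at 57.2, 57.1, 74.8 and 76.1 CPM in NR and 25.8, 30.4, 34.1 and 42.2 CPM in DR libraries. All DR libraries were lower (log2FC -0.95, SE 0.12, adjusted p = 1.77e-11), and without the 22 nuclei the value was -0.90 (adjusted p = 4.60e-09). Osbpl3 (chromosome 6, 50293330 to 50456201, minus strand), a lipid transfer protein of the oxysterol-binding family, was at 1132, 1321, 982 and 735 CPM in NR and 384, 314, 823 and 388 CPM in DR libraries. It was listed for its response in excitatory layers of these same libraries, so its call is not independent evidence. The DR GR-KO male stayed within the NR range and the other 3 DR libraries were far below it (log2FC -1.10, SE 0.25, adjusted p = 0.00194; without the 22 nuclei -1.11 (adjusted p = 0.00182)).

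Car10 and Gpc5 are genes of other cells to a large degree. Car10, a secreted relative of the carbonic anhydrases that binds neurexins, was at 83.2, 68.3, 86.4 and 117 CPM in NR and 22, 37.2, 63.6 and 32.8 CPM in DR libraries (log2FC -1.15, SE 0.19, adjusted p = 2.95e-06), and layer 2/3 neurons held 1847 CPM. Without the 22 nuclei the NR libraries had 39.5, 27.4, 44.7 and 40.8 CPM and the DR libraries 22, 27.4, 58.5 and 26.4. The conditions then overlapped, and the log2 fold change was -0.16 (adjusted p = 0.786). The heparan sulphate proteoglycan gene Gpc5 was at 43.2, 71.7, 50.6 and 34.9 CPM in NR and 6.82, 12, 8.30 and 31.1 CPM in DR libraries, lower in every DR library (log2FC -1.79, SE 0.34, adjusted p = 1.10e-04), while astrocytes held 9642 CPM. The summed astrocyte markers were at 193 to 239 CPM in NR and 165 to 203 CPM in DR libraries, and their part in the difference was not tested. The remaining named genes that were lower without overlap had smaller changes: Hsp90aa1, a heat shock chaperone (-0.59), Fmo1, a flavin monooxygenase (-0.57), Ywhah, a 14-3-3 protein (-0.53; without the 22 nuclei -0.49 (adjusted p = 0.053)), Tex9 (-0.53) and Arf5, a small GTPase of the Golgi (-0.52).

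**Figure D3:**
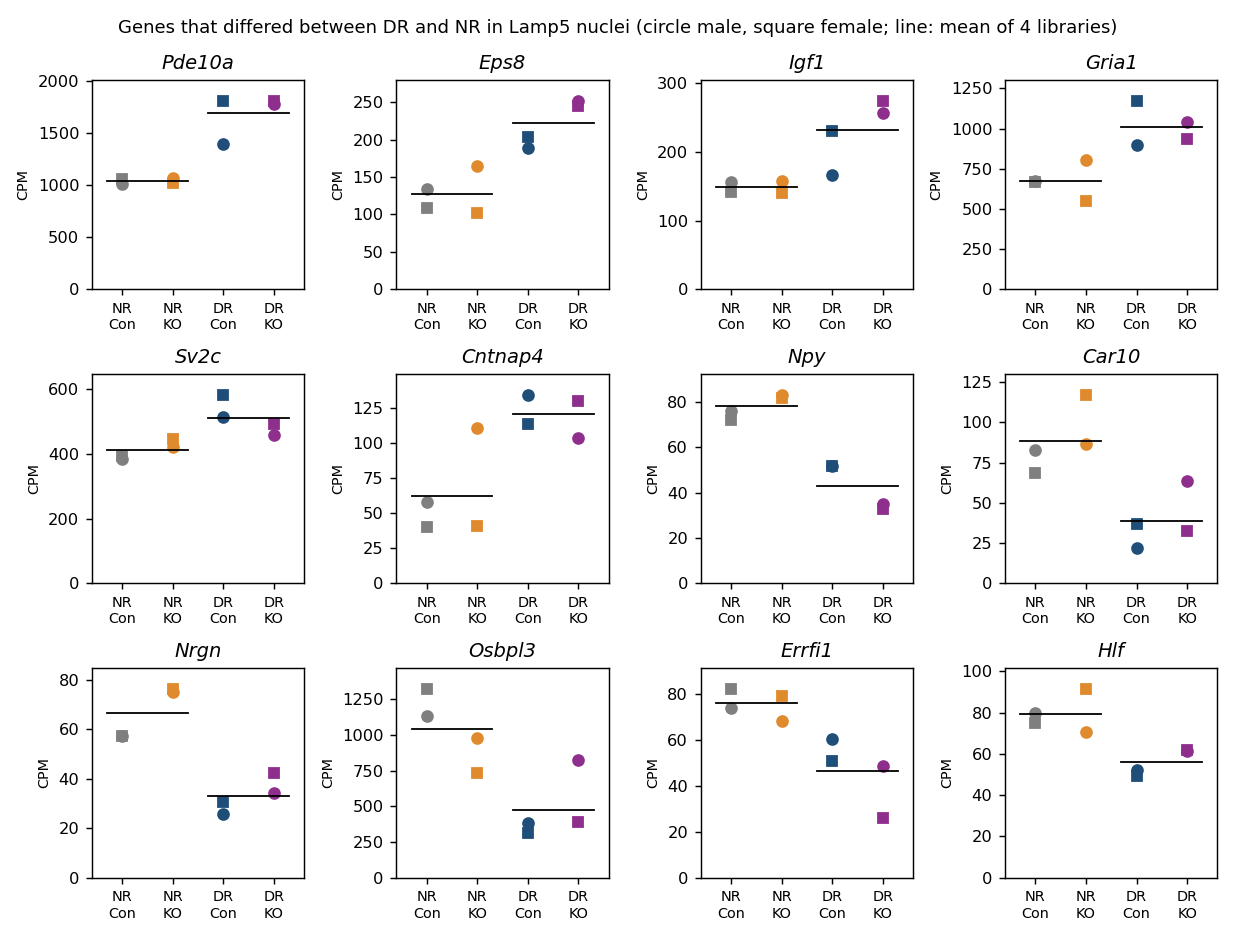
Level of 12 genes in the Lamp5 nuclei of each library, in CPM, by rearing and genotype. Circles are males, squares females, and lines the mean of the 4 libraries of a rearing condition. Pde10a, Eps8, Igf1, Gria1 and Sv2c are higher and Npy, Nrgn, Errfi1 and Hlf lower in all 4 DR libraries than in all 4 NR libraries, while Osbpl3 and Cntnap4 overlap in 1 library each.

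To set these responses beside those of other interneurons, the rearing difference was compared with that of Vip and of Sst nuclei from the same libraries, with library as a block. Pvalb, chandelier and excitatory nuclei were not compared. A difference from both classes therefore does not make a response particular to Lamp5 nuclei. Of 12797 genes tested against Vip, 43 differed (0.336%), and of 13153 against Sst, 71 (0.54%), of which the quasi-likelihood test called 11 and 3. In Vip nuclei alone 136 of 13391 genes were called for rearing (1.02%), and in Sst nuclei 140 of 13951 (1%). Depth and numbers differed, with 2396 Vip and 2869 Sst nuclei.

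Pde10a and Igf1 differed from both classes. Pde10a was higher in DR in Lamp5 nuclei, and in Vip nuclei its mean went from 1021 to 789.9 CPM and in Sst nuclei from 1218 to 920.5. The responses in those classes were -0.36 (SE 0.15, adjusted p = 0.279) and -0.42 (SE 0.15, adjusted p = 0.184), neither called, and the differences of Lamp5 from them were 1.12 (SE 0.13, adjusted p = 1.77e-13) and 1.18 (SE 0.15, adjusted p = 6.46e-12). For Igf1 the responses were -0.28 (SE 0.12, adjusted p = 0.307) in Vip and -0.14 (SE 0.10, adjusted p = 0.658) in Sst nuclei, and the differences were 0.97 (SE 0.09, adjusted p = 1.89e-20) and 0.82 (SE 0.12, adjusted p = 1.12e-08). Vip nuclei held more Igf1 than Lamp5 nuclei in both conditions, with 401 CPM in NR and 331 in DR. Lrrk2 rose more than in Vip by 0.50 (adjusted p = 0.0442) and than in Sst by 0.76 (adjusted p = 3.04e-04), and Popdc3 more than in Vip by 1.08 (adjusted p = 0.0107).

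Further genes differed from 1 or from both of these classes. Against Vip, the glycerol phosphate dehydrogenase gene Gpd1 (1.34), Htr4 (1.11), the esterase gene Nceh1 (0.78) and Grik4 (0.61) responded more positively in Lamp5 nuclei. Against Sst the same held for the adipogenic nuclear receptor gene Pparg (0.83), the protocadherin gene Pcdh11x (0.81), the Notch coactivator gene Maml3 (0.80), Nfia (0.70), Cntnap5a (0.61) and Gria1 (0.47). The genes with more negative responses included some that the compared classes or glia express. Such a difference can come from Lamp5 nuclei or from the compared ones. In Lamp5 nuclei Adamtsl1 went from 188 (NR) to 152 CPM (DR) where Ndnf had a UMI, and from 494 to 489 where it had none. Elfn1, which Vip and Sst neurons express, differed by -2.72 and -2.79, with 2, 14, 6 and 3 UMIs in the NR Lamp5 nuclei and 0, 2, 1 and 0 in the DR nuclei. The phosphodiesterase gene Pde1c differed by -1.89 and -2.45, Gpc5 by -2.35 and Nckap5 by -1.44 from Vip, and Adamtsl1 by -1.70, Vav3 by -1.69, Cntnap5b by -1.12, Chrna7 by -0.89 and Sst by -2.05 from Sst. Brinp3 differed from both, by -1.07 and -1.08, and without the 22 nuclei by -0.22 (adjusted p = 0.894) and -0.22 (adjusted p = 0.872). In the same setting, Car10's differences from Vip and Sst went from -1.18 and -1.47 to -0.20 (adjusted p = 0.938) and -0.48 (adjusted p = 0.519), Kcnh5's from -1.11 to 0.28 (adjusted p = 0.843), Vav3's to -1.38 (adjusted p = 0.128) and Cntnap5b's to -0.77 (adjusted p = 0.394). The differences of Pde10a and Igf1 remained called.

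Several of the changes were also called in the other classes. Osbpl3 fell in Vip nuclei by a log2 fold change of -1.38 (SE 0.23, adjusted p = 5.35e-06) and in Sst nuclei of -1.02 (SE 0.21, adjusted p = 0.00123), and Nrgn by -0.96 (SE 0.17, adjusted p = 2.96e-05) and -0.80 (SE 0.17, adjusted p = 0.00238). The responses of Npy, -0.61 (SE 0.22, adjusted p = 0.161) in Vip and -0.07 (SE 0.20, adjusted p = 0.947) in Sst nuclei, gave differences from Lamp5 with adjusted p = 0.96 and 0.0888 by the same likelihood ratio test.

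**Figure D4:**
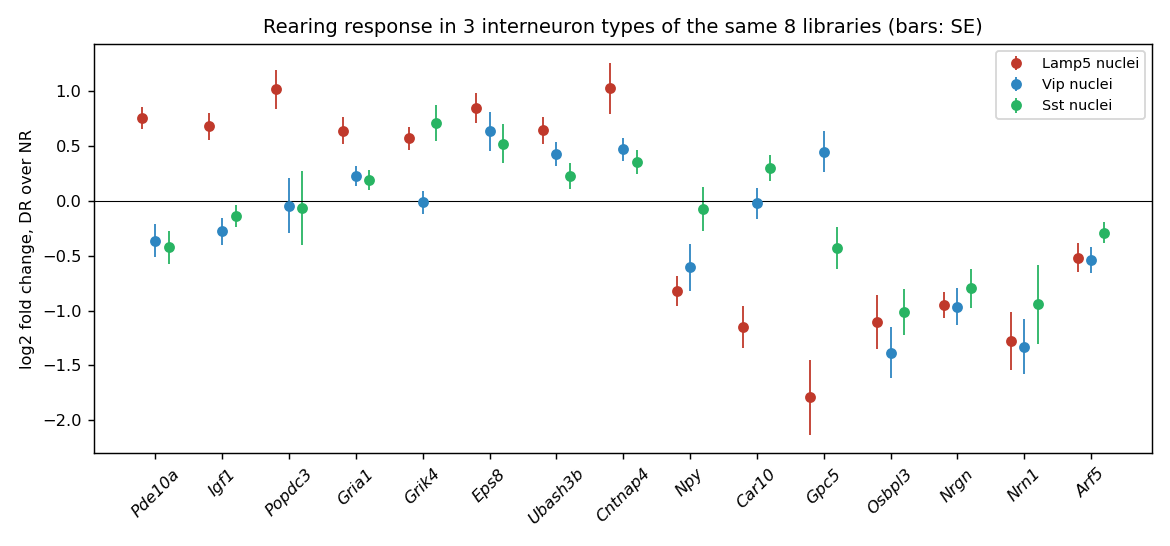
Rearing response of 15 genes in Lamp5, Vip and Sst nuclei, as log2 fold change (DR minus NR) over 8 libraries with bars of 1 SE. Pde10a and Igf1 are above 0 in Lamp5 nuclei and below 0 in the other two classes, whereas Osbpl3 and Nrgn are below 0 in all of them.

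Rearing was then compared within each genotype, in 4 libraries each and with no library in common. In GR-Con mice 46 of 11381 genes passed (0.404%), with 28 above and 18 below 0, and in GR-KO mice 212 of 11302 (1.88%), 136 higher and 76 lower. Of the genes called in GR-Con and tested in both, 39 of 44 (88.6%) had the same direction in GR-KO, of those called in GR-KO 169 of 206 (82.0%), and of all 11014 genes 61.1%. Called in both were Pde10a, Eps8, Nrgn, Car10, Brinp3 and the haemoglobin gene Hbb-bs, haemoglobin transcripts summing to 18.5 to 41.7 CPM in NR and 7.86 to 20.6 CPM in DR libraries. Pde10a had 0.67 (adjusted p = 0.0112) in GR-Con and 0.83 (adjusted p = 8.05e-06) in GR-KO, and Nrgn -0.98 (adjusted p = 8.60e-05) and -0.93 (adjusted p = 1.10e-04). Without the 22 nuclei, Car10 and Brinp3 were no longer called in GR-Con, at -0.42 (adjusted p = 0.764) and -0.50 (adjusted p = 0.433).

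In GR-Con mice the most negative named gene was Gpc5, at -2.54 (adjusted p = 3.10e-13), followed by Osbpl3 at -1.77 (adjusted p = 3.62e-22). Osbpl3 was -0.45 (adjusted p = 0.541) in GR-KO mice, but the interaction of rearing with genotype was not called for it (adjusted p = 0.265). Genes higher in DR included Fbxl7 (1.44), an F-box protein, Cntnap4 (1.36), Cntnap5c (0.94), Dchs2 (0.90), the metalloprotease gene Adam12 (0.84), Tenm2 (0.68), Gria1 (0.67), Sv2c (0.54) and Htr4 (1.39). Dchs2, Sv2c and Htr4 were not called when the 22 nuclei were left out, at 0.89 (adjusted p = 0.0626), 0.53 (adjusted p = 0.0751) and 1.26 (adjusted p = 0.0654).

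In GR-KO mice Popdc3 (1.28), Gfod1 (1.18), the sialyltransferase gene St6galnac5 (1.15), the Wnt receptor gene Ror1 (1.12) and the transcription factor gene Stat3 (1.05) were higher in DR. From the lists, Igf1 (0.89), Tacr1 (2.46), Grik4 (0.74), Kcnd3 (0.49), Npas2 (0.69), Zbtb16 (0.73), Nr4a3 (1.66), Fosl2 (2.65), Unc5b (1.47), Cort (1.73), Nrxn2 (0.52) and the transcription factors Prox1 (0.61), Nfix (0.54) and Tox2 (0.60) also rose. Npy fell by 1.22 on the log2 scale (adjusted p = 8.72e-09), Errfi1 by 0.91, Id2, an inhibitor of bHLH factors, by 0.65, the link protein gene Hapln1 by 0.57, Nrn1 by 1.37 and the glutamate receptor gene Grm3 by 1.34. Kcnd3, Nrn1 and Grm3 were not called when the 22 nuclei were left out, at 0.48 (adjusted p = 0.0713), -1.0 (adjusted p = 0.182) and -0.77 (adjusted p = 0.0575). Genes of other classes were also lower: Rorb (-2.44; without the 22 nuclei -0.93 (adjusted p = 0.0963)), Tafa1 (-1.48; without them -0.41 (adjusted p = 0.531)), Brinp3 (-1.24; without them -0.10 (adjusted p = 0.926)), Slc17a7 (-1.04; without them -0.90 (adjusted p = 0.133)) and Vip (-2.26), which had 34 and 18 UMIs in the NR and 3 and 3 in the DR libraries.

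Only 2 genes were called for the interaction of genotype with rearing (0.0168% of 11885 tested), Gfod1 and Tmem132c. Gfod1 was at 89.6, 92.4, 74 and 66 CPM in NR and 78.1, 101, 158 and 147 CPM in DR libraries. The 2 DR GR-KO libraries were above all others and the NR GR-KO pair below (difference between the genotype effects, NR minus DR, -1.16, SE 0.22, adjusted p = 7.93e-04). Tmem132c, below the expression limit for naming and picked after its value was seen, was at 42.8, 44.8, 21.3 and 24.7 CPM in NR and 19, 22.5, 28.6 and 35 in DR libraries. The quasi-likelihood test and DESeq2 called 0 genes, with 657 and 168 at an unadjusted p under 0.05.

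The genotype comparisons ask whether the Cre vector, meant to remove GR from astrocytes, alters Lamp5 neurons, and few genes passed. A Cre UMI was present in 3.97% of GR-KO Lamp5 nuclei. Effects through astrocytes and effects of Cre within Lamp5 nuclei cannot be told apart here. Over 8 libraries, with rearing as a term, 11 of 11885 genes passed (0.0926%), with GR-KO above GR-Con for 9 and below it for 2. None of the 305 tested list members was among them, 29 having an unadjusted p below 0.05. By quasi-likelihood 2 genes were called in all, Brinp3 and Gm42418, neither on a list, and DESeq2 called 4, these 2 with AC149090.1 and Cmss1. Gm42418 was higher in GR-KO (log2FC 0.60), at 4044 to 7113 CPM against 2857 to 4565 in GR-Con. The genotypes overlapped, and the NR GR-KO male was the highest. Without the 22 nuclei the likelihood ratio calls of Cmss1 (0.46, adjusted p = 0.0843) and Phldb2 (-2.01, adjusted p = 0.294) were lost. Galnt14, a glycosyltransferase gene, was at 100.0, 88.5, 111 and 107 CPM in the GR-Con libraries (NR male and female, then DR) and 122, 115, 139.7 and 182 in the GR-KO libraries. All GR-KO values were higher (log2FC 0.46, SE 0.11, adjusted p = 0.0461). Its call was not kept by the quasi-likelihood test (adjusted p = 0.305) or DESeq2 (adjusted p = 0.386), and held in 7 of 16 alternatives. The other 10 included Brinp3 at 1.07 (without the 22 nuclei 0.65, adjusted p = 0.0882) and Mertk and Tgfbr1 at 1.45 and 1.40. Among the types with at least 10 nuclei in each library, Mertk was most abundant in astrocytes, at 1369 CPM, and Tgfbr1 in oligodendrocyte precursors, at 74.8 CPM. Types with fewer nuclei were not ranked. Of those ranked, the highest for the microglial gene Ly86 was oligodendrocytes, at 5.14 CPM. Mertk and Tgfbr1 peaked in the NR GR-KO male, at 18.8 CPM, as did Ly86 (2.15), with 41 UMIs there and 0 to 14 in the other libraries. Microglia and vascular markers summed to 43.9 CPM in that library. Ptn, which astrocytes held at 1429.7 CPM, was called at 0.75. Npsr1 was called at -6.26, on few UMIs that are given under other observations. In DR mice alone Mertk and Tgfbr1 were called at 2.11 (adjusted p = 0.00357) and 1.78 (adjusted p = 0.0041), where microglia and vascular markers summed to 21.1 to 22.2 CPM in all 4 libraries, and the part of these markers in the calls was not tested.

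In NR mice 10 of 11617 genes passed (0.0861%), 5 in each direction, of which the quasi-likelihood test called Skap1 and DESeq2 called Brinp3 and AC149090.1. Skap1, an adaptor of immune receptor signalling with an adjusted p of 0.354 by DESeq2, was at 47.6 and 45.9 CPM in GR-Con and 20.2 and 18.6 CPM in GR-KO. Each GR-KO value was under the lower GR-Con value (log2FC -1.26, SE 0.20, adjusted p = 1.46e-06). In DR mice its levels were 34.1 and 26.3 and 26.3 and 27.2 CPM (log2FC -0.15, adjusted p = 0.997). Tmem132c (-0.93) and Itgbl1 (-0.74), the latter among the leading genes of the class, were also lower. Rorb (1.90), Tafa1 (1.44) and Brinp3 (1.13) were higher in GR-KO, where the NR GR-KO female held 7 of the 22 nuclei with Slc17a7, and without those nuclei the values of Rorb and Brinp3 were 0.64 (adjusted p = 1.000) and 0.46 (adjusted p = 0.994), and that of Itgbl1 was -0.68 (adjusted p = 0.082).

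In DR mice 33 of 10971 genes passed (0.301%), with GR-KO above GR-Con for 26 and below for 7, but 0 by the quasi-likelihood test, with 772 at an unadjusted p under 0.05, and 2 by DESeq2. Cacng2, the AMPA receptor auxiliary subunit stargazin, was at 144 and 123 CPM in GR-Con and 205 and 264 CPM in GR-KO. Both GR-KO values were higher (log2FC 0.83, SE 0.18, adjusted p = 0.0041). The vesicle GTPase gene Rab3b (1.06), the endothelin-converting enzyme gene Ece1 (0.95), the ETS factor gene Etv5 (0.93), Cables1 (0.81) and Fosl2 (1.88) were also higher, and the synaptic adhesion gene Il1rapl2 (-1.26), the transcriptional cofactor gene Zfpm2 (-1.01) and the BMP coreceptor gene Rgmb (-0.74) lower. When the 22 nuclei were left out, Cables1 was at 0.81 (adjusted p = 0.0567) and Rgmb at -0.70 (adjusted p = 0.0612). Mobp, a myelin gene, was called at 2.69 with 3.41 and 4.44 CPM in GR-Con and 6.91 and 43.9 in GR-KO, the last being the library with the high oligodendrocyte marker sum. No gene was called in both rearing conditions. Of the 9 genes called in NR and tested in both, 8 had the same direction in DR, and of 31 called in DR 19 (61.3%) had it in NR, against 50.2% of all 10863 genes.

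Within the class, nuclei divided by Ndnf, a split chosen after its values were seen and given as a description. There were 592 nuclei with a UMI of Ndnf and 571 without (50.9% with, 45.9% to 54.8% per library), at median depths of 16764 and 15803 UMIs. Summed per library, nuclei with Ndnf had 2641 ± 390.3 CPM of Reln and nuclei without it 317 ± 118 (n = 8). The same side held the guidance gene Sema3e (600.1 ± 135 against 89.5 ± 25.2), the sulphotransferase gene Ndst4 (147 ± 21 against 10.1 ± 6.64), Grik1 (3277 ± 461 against 906 ± 169) and Ntn1 (74.7 ± 25.8 against 17.5 ± 7.58). Nuclei without Ndnf had more of the adhesion gene Alcam (382 ± 165 against 81.7 ± 42.7), the protocadherin gene Pcdh15 (1546 ± 301 against 331 ± 137), the serotonin receptor gene Htr1f (599 ± 81.1 against 181 ± 43.1), Tacr1 (21.6 ± 17.2 against 0.798 ± 1.49) and Lhx6 (11.3 ± 6.89 against 0.512 ± 0.679), a factor of the medial lineage that marks a small Lamp5 subset.

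The named rearing differences had the same direction on both sides of this split, but not the same size. All 20 genes named for the size of their rearing difference had the same direction in nuclei with and without Ndnf, and their conditions did not overlap for 13 and 14 of them. The share without overlap over all genes was not determined in these sets. Mean Nxn went from 20.2 to 23.6 CPM in nuclei with Ndnf, where the conditions overlapped, and from 25.1 to 58.9 in nuclei without. Mean Npy went from 61.6 to 41.6 CPM in nuclei with Ndnf and from 95.8 to 43.8 in nuclei without, Pde10a from 967 to 1779 and from 1116 to 1593, and Igf1 from 126 to 227 and from 174 to 238. These 20 genes were chosen on all of these nuclei, and for lack of overlap there. Neither the shared direction nor the counts without overlap are therefore separate support.

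**Figure D5:**
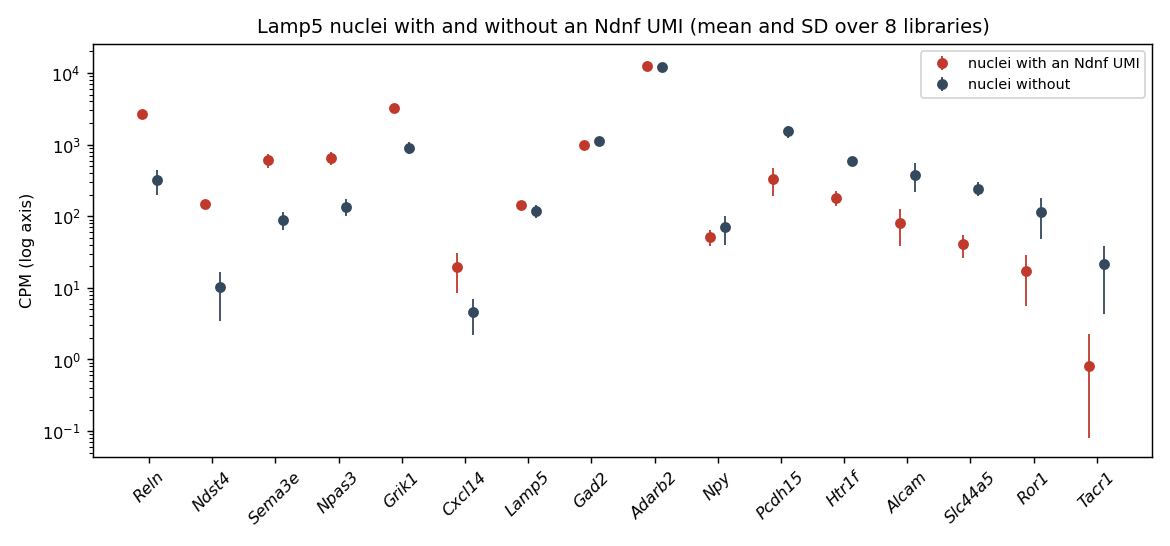
Level of 16 genes in Lamp5 nuclei with and without a UMI of Ndnf, in CPM on a log axis, as mean and 1 SD over 8 libraries. A lower bar is shortened where the SD nears or exceeds the mean. Reln, Sema3e and Ndst4 are higher in nuclei with Ndnf, and Alcam, Pcdh15, Htr1f and Tacr1 in nuclei without it.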

How the data were processed

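The deposited files hold raw UMI counts per gene and nucleus for 26711 features and 102330 nuclei, which the authors made with Cell Ranger 8.0.1 on mm10 with a custom annotation, and a cell table with library, group and cell type, which they made with Seurat 5.3.0. The deposited table also gives the percent of mitochondrial UMIs in each nucleus, as the authors computed it. By the study's methods, nuclei under 500 genes or over 70000 counts, doublets called by DoubletFinder and clusters without markers had been removed. No further filter or doublet caller was applied here. Library names in the table carry group and sex only.

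Counts of nuclei named Lamp5 were summed per library. Genes were filtered (filterByExpr), scaled (TMM) and tested with the likelihood ratio test of edgeR 4.0.16 in R 4.3.3. Adjustment was by Benjamini-Hochberg over all genes tested, with calls at an adjusted p under 0.05. The study's methods name this test for genotype in NR mice, and the filter and scaling were chosen here. Log2 fold changes are DR minus NR or GR-KO minus GR-Con and come from the fit, whereas CPM are UMIs per 1000000 of a library's Lamp5 UMIs without TMM. Scripts were checked on simulated counts.

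Named were the 10 genes per direction (5 for comparisons other than rearing over 8 libraries) that changed most, among those called at a mean log2 CPM of 5 or more with, between groups, no overlap of libraries, and without sex-linked, vector and clone-numbered features, together with called members of 33 gene lists. The members and lists were chosen with earlier results of these data known. Genes named outside this rule (leading genes of the class, those of the Ndnf sets and those stated as not called) were picked after their values were seen. Alternatives were the quasi-likelihood test, DESeq2 1.42.0, size factors in place of TMM, no filter, sex as a term, all libraries in 1 fit, equal numbers of nuclei (118) or of UMIs (1785567) per library, leaving out nuclei with 3 or more UMIs of Slc17a7, and leaving out each library. The comparison with Vip and Sst without those nuclei, the Ndnf sets and the transcript classes were added after the data were seen. Gene coordinates are GENCODE vM21 (GRCm38), matched by symbol for 26006 features, and promoters are RefSeq (GRCm38.p6). Reads of overlapping or near-identical genes were not separated here. A gene that the rule names is not reported here.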

Additional observations from a re-analysis of the deposited data

Results flagged for a closer look

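In a search of 52 sets of 4 or 8 libraries for a value standing apart from the rest, 4 were picked out, where chance gives about 1 in 20. Pde10a was at 1389 CPM in the DR GR-Con male, the lowest of the DR libraries and still above all NR libraries. The median depth of Lamp5 nuclei was 26520.5 UMIs in the NR GR-KO female. Oligodendrocyte lineage markers summed to 203.9 CPM in the DR GR-KO female, and microglia and vascular markers to 43.9 CPM in the NR GR-KO male.

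The effect of genotype differed between rearing conditions for Gfod1 by -1.16 on the log2 scale (edgeR likelihood ratio test, adjusted p = 7.93e-04), being below 0 in NR and above 0 in DR.

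The rearing response differed between Lamp5 and Vip nuclei by 1.34 for Gpd1, 1.12 for Pde10a, 1.11 for Htr4, 0.97 for Igf1 and 0.78 for Nceh1, and by -2.72 for Elfn1, -2.35 for Gpc5, -1.89 for Pde1c, -1.44 for Nckap5 and -1.18 for Car10. From Sst nuclei it differed by 1.18 for Pde10a, 0.83 for Pparg, 0.82 for Igf1, 0.81 for Pcdh11x and 0.80 for Maml3, and by -2.79 for Elfn1, -2.45 for Pde1c, -1.70 for Adamtsl1, -1.69 for Vav3 and -1.47 for Car10. All are log2 differences called by the interaction of cell type with rearing, and those of Car10, from both classes, and of Vav3 were lost without the 22 nuclei with Slc17a7.

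The vector's Cre transcript, which no comparison used, had a UMI in 3.97% of Lamp5 nuclei of GR-KO mice and in none of the 584 of GR-Con mice.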

How the results depend on the processing

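The number of called genes depended on the test. For rearing over 8 libraries (319), the quasi-likelihood test called 157 and DESeq2 193; for rearing in GR-Con (46) 9 and 16; for rearing in GR-KO (212) 32 and 69; for genotype over 8 libraries (11) 2 and 4; for genotype in NR (10) 1 and 2; for genotype in DR (33) 0 and 2; for the interaction (2) 0 and 0. The quasi-likelihood test called 11 genes against Vip (43) and 3 against Sst (71). With sex as a term the counts were 102 for rearing in GR-Con, 321 for rearing in GR-KO, 42 and 54 for genotype in NR and DR and 7 for the interaction. Without the filter on low counts they were 18 for genotype over 8 libraries, 19 for genotype in DR, 81 against Vip and 143 against Sst. A single fit of all libraries gave 26 for rearing in GR-Con. Equal numbers of nuclei gave 21 for genotype in NR and 4 for the interaction, and equal total UMIs 16 for genotype in DR. The cause of these shifts was not tested. Without the 22 nuclei with Slc17a7 the counts were 273 for rearing over 8 libraries, 8 and 28 for genotype in NR and DR and 3 for the interaction, and 51 and 58 against Vip and Sst. That setting turned the direction of Kcnh5 over 8 libraries to 0.26 and its difference from Sst to 0.28.

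Leaving out each library in turn gave 111 to 347 called genes for rearing over 8 libraries, 34 to 154 for rearing in GR-Con, 102 to 307 for rearing in GR-KO, 7 to 44 for genotype over 8 libraries, 13 to 45 for genotype in NR, 20 to 54 for genotype in DR, 2 to 16 for the interaction, 22 to 83 against Vip and 40 to 147 against Sst. Counts for rearing over 8 libraries fell most without the DR GR-KO male (111), the NR GR-KO female (174), the DR GR-KO female (203) and the NR GR-Con male (207). For rearing in GR-KO they were 102 without the DR GR-KO male, 105 without the NR GR-KO female and 117 without the DR GR-KO female, and for rearing in GR-Con 154 without the DR GR-Con male. Without the NR GR-KO female genotype over 8 libraries gave 44 and genotype in NR 45. Without the NR GR-KO male the counts against Vip and Sst were 83 and 147. Genotype in DR gave 54 without the DR GR-Con male or the DR GR-KO male and 20 without the DR GR-KO female, and the interaction 16 without the DR GR-KO male. The log2 ratio of the share of Lamp5 nuclei ranged from 0.14 to 0.36 for genotype and from -0.20 to 0.0058 for rearing, the last without the DR GR-KO female.

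Of the 58 genes named for rearing over 8 libraries, 58 remained called with sex as a term, 57 with size factors, 39 with the quasi-likelihood test, 27 of the 30 to which DESeq2 gave an adjusted p, 42 without the 22 nuclei and 29 without the DR GR-KO male. Pde10a, Igf1, Eps8, Npy, Nrgn, Gria1, Grik4, Popdc3, Gpc5, Tenm2, Kcnd3 and Lrrk2 were called in every alternative that gave them an adjusted p. The calls that held least often included Dbp (3 of 15), Chrna5 (4 of 15), Pnoc and Ntn1 (5 of 15), Zbtb16 (5 of 16), Adrb1 (6 of 15) and Unc5d (6 of 16). With 2 animals per group and 118 to 183 nuclei per library, small differences in genes of few UMIs were not detectable. No paired analysis was possible because the library names in the cell table carry no replicate numbers, so that the fit with sex as a term matches libraries by sex only. The planned split of nuclei by Lhx6 was not run, since 20 of 1132 thinned nuclei had an Lhx6 UMI and some libraries had none.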

Other observations

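Ribosomal protein genes had a median log2 fold change of -0.37 (edgeR fit, DR minus NR) over 80 genes tested, against -0.01 over all genes. Malat1, a long non-coding RNA of the nucleus, was at 38118 to 42226 CPM in NR and 30114 to 36598 CPM in DR libraries, and was not called. Mitochondrial transcripts summed to 135 to 166 CPM in NR and 125 to 188 in DR.

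Npsr1, a neuropeptide S receptor gene called for genotype in NR and over 8 libraries, had 6.80 and 3.92 CPM in the NR GR-Con and 0 and 0 CPM in the NR GR-KO libraries, from 17 and 7 and 0 and 0 UMIs. The DR libraries held 2 and 2 UMIs in GR-Con and 0 and 0 in GR-KO. Over 8 libraries the log2FC was -6.26 (likelihood ratio test, adjusted p = 8.78e-07). It was not called there by the quasi-likelihood test (adjusted p = 0.0943) or DESeq2 (adjusted p = 0.339).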
